A study of Mus musculus with 9 samples.

Results

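The genes described here belong to the NF-κB system: the subunit genes Nfkb1, Nfkb2, Rela and Relb, the IκB family genes Nfkbia, Nfkbiz and Bcl3, the ubiquitin-editing enzyme gene Tnfaip3, and the target genes Icam1 and Ier3. The rule is a list of names with no threshold on a measured value, but the names, and the lists of other genes used further on, were chosen with earlier results of these data known. These 10 genes were taken from the 55401 genes of the count table, and all 10 were among the 16762 genes that passed the filter on low counts. RNA-seq of poly(A)-enriched RNA was available from 9 cultures of neonatal mouse ventricular myocytes (NMVMs), isolated from wild-type C57BL/6J pups 1 day old. The control group (n = 3) stayed at normal oxygen in DMEM with 10% FBS. The hypoxia group (n = 3) and the hypoxia + rSRGN group (n = 3) were washed, moved to DMEM without glucose or serum and kept for 6 h in a sealed AnaeroPack chamber, and recombinant serglycin (rSRGN), a proteoglycan core protein, was present in the latter during that time. The effects of oxygen, glucose and serum therefore cannot be told apart in any comparison with control. The dose of rSRGN and a vehicle control were not given in the labels.

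NF-κB factors are dimers of the subunits, held in the cytoplasm by IκB proteins until the IκB kinase complex marks those proteins for degradation. Freed dimers enter the nucleus and switch on genes of inflammation, adhesion and survival, and among them the genes for their own inhibitors, which is why Nfkbia and Tnfaip3 are known as feedback targets. Nfkbiz and Bcl3 encode atypical IκB proteins that act in the nucleus and can also raise transcription of selected targets. In heart muscle the pathway is known for its part in the response to ischaemia and cytokines.

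Total counts were 21669017 to 22781557 in control, 16583985 to 18148474 in hypoxia and 16640239 to 20826701 in hypoxia + rSRGN. Levels are given as CPM, the count divided by the TMM-scaled total and given per 1000000. The summed level of 20 cardiomyocyte markers was 61697 to 74912 CPM in control, 5168 to 8097 CPM in hypoxia and 10601 to 11283 CPM in hypoxia + rSRGN, and that of 12 fibroblast markers was 9636 to 11392, 18560 to 21347 and 20641 to 21413 CPM. The cultures labelled as myocytes thus also held fibroblast RNA, and both sums moved with the groups. The 12 endothelial markers summed to 125 to 161 CPM in control, 122 to 146 in hypoxia and 136 to 163 in hypoxia + rSRGN. In hypoxia against control 7 of them (58.3%) were called lower and 1 (8.33%) higher, beside 25.1% and 26.4% of all genes. Their median log2 fold change there was -0.77. The 13 macrophage markers summed to 235 to 253 CPM in control, 110 to 164 in hypoxia and 138 to 157 in hypoxia + rSRGN. Within that list 11 markers (84.6%) were called lower in hypoxia against control, beside 25.1% of all genes. Cx3cr1 alone was higher, at a mean of 0.285 CPM in control, 114 in hypoxia and 116 in hypoxia + rSRGN. Cx3cr1 made up most of the sum in both hypoxic groups, and the mean levels of the other 12 markers summed to 245, 27.4 and 33.5 CPM. The 7 neutrophil markers summed to at most 0.674 CPM in any library, and S100a9, Ly6g, Mpo and Retnlg had no count in either hypoxic group. In these bulk libraries, fewer cells of a type and less RNA per cell cannot be told apart, and the part of the cell mixture in the results that follow was not tested.

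Sequences around annotated starts of the genes are shown first, since several of the genes are known to be regulated through NF-κB sites near their starts. RefSeq windows of GRCm38.p6, 250 bases before to 50 bases after an annotated start, were found for 7 of the 10 genes (Nfkb2, Rela, Nfkbia, Bcl3, Tnfaip3, Icam1 and Ier3). The NF-κB consensus motif of 10 bases, searched on both strands, was present in the windows of 5 of these 7 genes, against 8.46% of all 32851 windows and 9.55% of all 27025 genes. Below, the region upstream of the Nfkbia start at chr12:55492648-55492897 (minus strand, outside the counted exons) is given whole, with the match in capitals. Its first base lies 29 bases before the start.
Nfkbia: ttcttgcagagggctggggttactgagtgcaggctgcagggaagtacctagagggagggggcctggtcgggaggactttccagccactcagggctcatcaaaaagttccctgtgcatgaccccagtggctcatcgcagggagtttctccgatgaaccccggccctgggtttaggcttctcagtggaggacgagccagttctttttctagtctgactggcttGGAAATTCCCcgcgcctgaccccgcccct

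For the other genes with a match, 30 bases around it are shown on the strand of the gene, again with the match in capitals, so that the letters can be compared between genes that rose and genes that did not. For Tnfaip3 the stretches are chr10:19015516-19015545 and chr10:19015403-19015432 (minus strand). The Bcl3 stretch is chr7:19822734-19822763 (minus strand) and the Ier3 stretch chr17:35821611-35821640 (plus strand). For Nfkb2 the 4 stretches are, in order, chr19:46304689-46304718, chr19:46304716-46304745, chr19:46305449-46305478 and chr19:46305695-46305724 (plus strand), taken from windows of alternative starts. Stretch 1 of Nfkb2 holds overlapping matches. Not all of these lie upstream of the start: the match of Bcl3 begins 3 bases, and that of stretch 4 of Nfkb2 11 bases, into the annotated transcript. These and the matches of stretches 1 and 2 of Nfkb2 lie within counted exons of their genes, while those of Tnfaip3, Ier3 and stretch 3 of Nfkb2 do not.
Tnfaip3, distal: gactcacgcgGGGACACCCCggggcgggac
Tnfaip3, proximal: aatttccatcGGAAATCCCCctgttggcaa
Bcl3: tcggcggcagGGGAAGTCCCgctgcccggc
Ier3: tgcgaagggcGGAGTTCCCCccggcccggc
Nfkb2, 1: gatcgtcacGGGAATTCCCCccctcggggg
Nfkb2, 2: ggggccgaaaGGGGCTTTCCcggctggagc
Nfkb2, 3: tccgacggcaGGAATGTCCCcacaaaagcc
Nfkb2, 4: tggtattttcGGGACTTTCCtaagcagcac

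No match was found in the windows of Rela and Icam1, which says only that these letters are not in those windows. The core of the hypoxia response motif, ACGTG on either strand, was found in windows of Tnfaip3 and Ier3, 2 of the 7 genes, against 21.78% of all genes. Matches to the NF-κB consensus were thus present both in genes that rose in hypoxia (Tnfaip3 and Bcl3) and in genes that did not pass the test there (Nfkbia and Ier3). Nfkb2, also with matches, was 1.42-fold higher in hypoxia. Rela rose without a match in its window, and Relb and Nfkbiz rose but had no window. The matches are matches of letters, and binding was not measured.

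**Figure D1:**
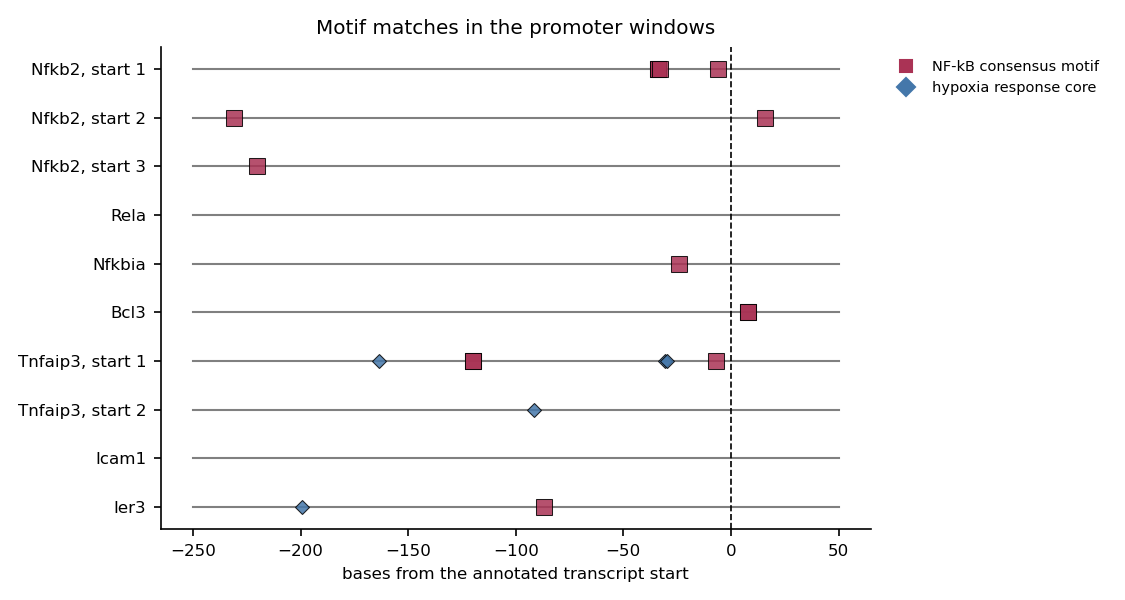
Positions of motif matches (squares: NF-κB consensus, diamonds: hypoxia response core) in windows from 250 bases before to 50 bases after each annotated transcript start, in bases from the start. Windows of 5 of the 7 genes shown hold a consensus match, and those of Rela and Icam1 hold none of either motif.

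Levels were first compared between the genes per kilobase of exon, as CPM per kb. The length was the summed exon length of each gene, from 1131 bases for Ier3 to 12061 for Nfkb1, and expressed transcripts may be shorter. The order depends on it: by CPM alone Nfkb1 was highest in control, at 73.8 ± 3.99. In control, Ier3 had the highest level at 47.8 ± 2.49 (SD, n = 3), followed by Rela at 15.8 ± 0.461, Nfkbia at 13.3 ± 1.72 and Nfkb2 at 11.8 ± 1.61, and the libraries of neighbours among Rela, Nfkbia and Nfkb2 overlapped. Nfkb1 (6.12 ± 0.330), Relb (4.26 ± 0.492) and Nfkbiz (2.63 ± 0.0945) came next, each without overlap with its neighbours. Tnfaip3 (1.43 ± 0.113) and Icam1 (1.38 ± 0.323) overlapped, and Bcl3 was lowest at 0.719 ± 0.169 CPM per kb. In hypoxia Nfkbiz moved from rank 7 to rank 3, at 21.6 ± 5.89 CPM per kb, and its libraries overlapped with those of Rela (27.4 ± 1.79) and Nfkb2 (16.8 ± 1.60). Icam1 was lowest in hypoxia, at 1.68 ± 0.268, and in hypoxia + rSRGN, at 1.90 ± 0.182 CPM per kb. With rSRGN, Nfkbiz stayed at rank 3 with 26.7 ± 0.157 CPM per kb, and Ier3 stayed at rank 1 with 42.4 ± 3.62.

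**Figure D2:**
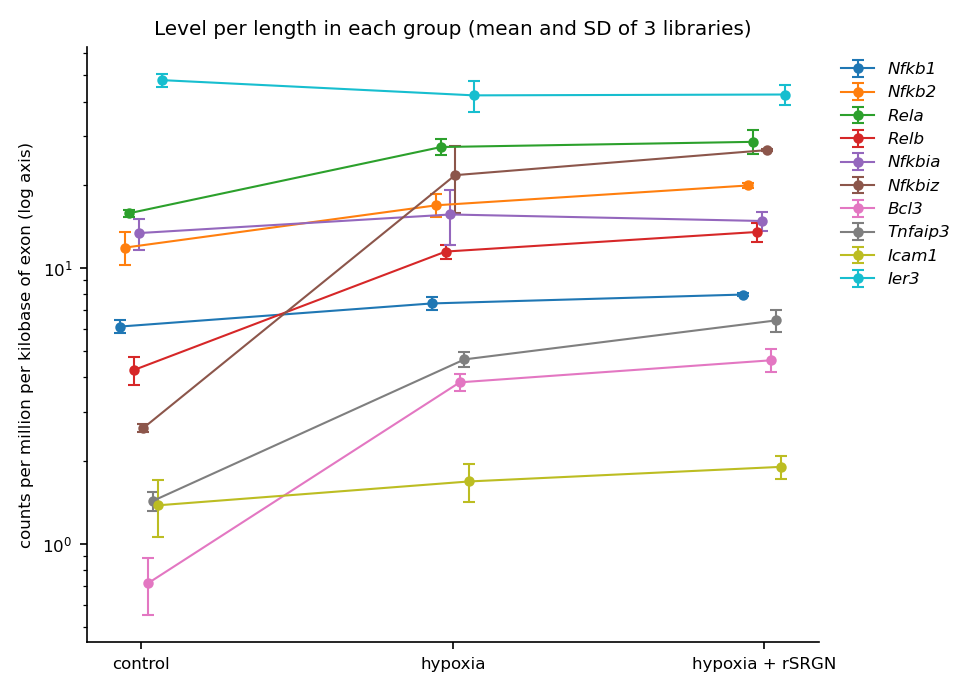
Mean level per length (CPM per kb of exon, log axis) of the 10 genes in control, hypoxia and hypoxia + rSRGN, with error bars for the SD of 3 libraries. Nfkbiz crosses 4 genes between control and hypoxia, from 2.63 to 21.6 CPM per kb, and Ier3 is highest in all 3 groups.

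The first comparison, hypoxia against control, asks how these genes responded to hypoxia in the changed medium. The atypical IκB genes Nfkbiz and Bcl3, the feedback gene Tnfaip3 and the subunit genes Relb and Rela rose, by 8.24-fold, 5.32-fold, 3.26-fold, 2.69-fold and 1.74-fold. The subunit genes Nfkb2 and Nfkb1 were 1.42-fold and 1.21-fold higher, and Nfkbia, Icam1 and Ier3 did not pass the test. Genes were called where the adjusted p was below 0.05 (edgeR quasi-likelihood test, Benjamini-Hochberg over all 16762 genes) and the fold change 1.5 or more. By this rule 5 of the 10 genes were called higher, where 26.4% of all tested genes were, and 0 were called lower, where 25.1% of all genes were. In the edgeR fit none of the 10 was lower at an unadjusted p below 0.05. DESeq2 also called 5 higher and 0 lower. With the adjusted p alone, 7 of the 10 were higher against 36.8% of all genes, and in 7 the libraries of hypoxia lay wholly above those of control, against 37.7% of all genes. The median log2 fold change was 0.65 over the 10 genes and 0.05 over all genes.

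**Figure D3:**
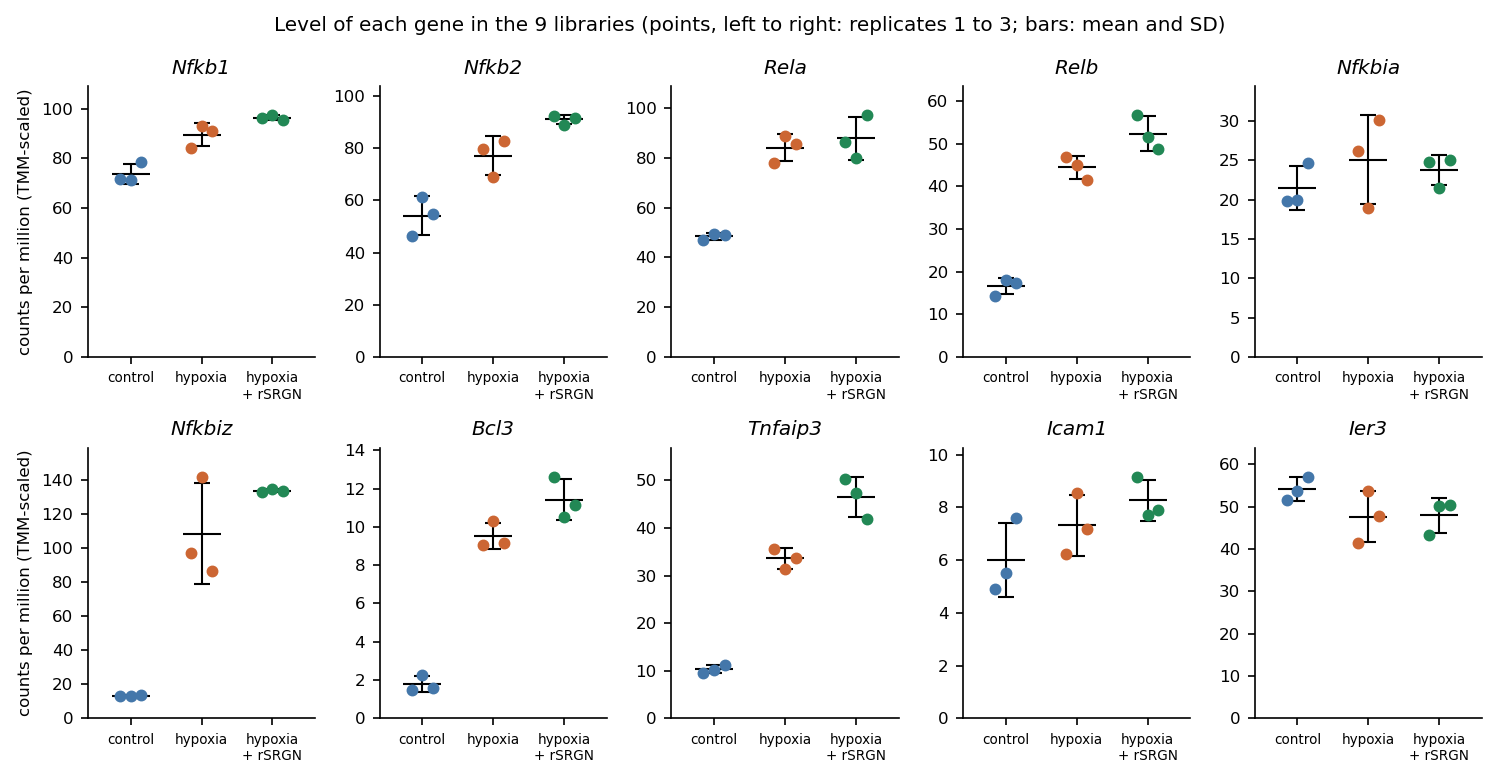
CPM of each gene in the 9 libraries, with each axis starting at 0, points for replicates 1 to 3 from left to right, and black bars for the mean and SD of each group. Nfkbiz lies between 12.9 and 13.7 CPM in control and between 86.4 and 142 CPM in hypoxia, while Nfkbia and Icam1 overlap between those groups.

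Among the subunits, Relb showed the largest difference. Relb, on the minus strand of chromosome 7 (19606217 to 19629438), encodes the partner of the processed Nfkb2 product in the non-canonical pathway. Its level was 14.4, 17.97 and 17.3 CPM in control and 46.8, 45.0 and 41.5 CPM in hypoxia, with a wide gap between the groups (log2 fold change 1.43 ± 0.102 SE, adjusted p = 2.93e-11, edgeR). Rela, on chromosome 19 (5637483 to 5648130, plus strand), encodes the main activating subunit of the canonical pathway. It was at 46.8, 49.3 and 49.1 CPM in control and 77.9, 88.6 and 85.7 CPM in hypoxia, again without overlap (log2 fold change 0.80 ± 0.0826, adjusted p = 1.54e-08, edgeR).

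Nfkb2 and Nfkb1 encode precursors that are cut to DNA-binding subunits. Nfkb2, on chromosome 19 (46304320 to 46312385, plus strand), was at 46.5, 61.1 and 54.9 CPM in control and 79.7, 68.9 and 82.9 CPM in hypoxia, so that every hypoxia library was above every control library. Its log2 fold change of 0.51 ± 0.0918 passed the adjusted p (3.9e-05, edgeR) but not the fold limit, and reached it, at 0.59, without control replicate 2. Of the 4584 exon bases of Nfkb2, 531 are shared with 4833438C02Rik and 299 with Psd, both on the opposite strand. Counting did not use strand, so fragments from the shared bases could not be told apart by strand. Whether this raised or lowered the count of Nfkb2 was not tested. Nfkb1, on chromosome 3 (135584655 to 135691547, minus strand), was at 71.8, 71.2 and 78.4 CPM in control and 84.2, 93.1 and 91.1 CPM in hypoxia. The groups did not overlap, and the difference was small (log2 fold change 0.28 ± 0.0724, adjusted p = 0.00171, edgeR).

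Within the IκB family the genes differed widely. Nfkbiz, on chromosome 16 (55811375 to 55838899, minus strand), was at 12.9, 12.96 and 13.7 CPM in control and at 97.2, 142 and 86.4 CPM in hypoxia. The control libraries lay close together, while the hypoxia libraries spread with a coefficient of variation of 27.2%, replicate 2 being highest. The log2 fold change was 3.04 ± 0.134 (adjusted p = 6.17e-15, edgeR), and 2.80 without hypoxia replicate 2. Bcl3, on chromosome 7 (19808462 to 19822770, minus strand), was at 1.48, 2.26 and 1.59 CPM in control, from 33, 50 and 33 counts, and at 9.08, 10.3 and 9.15 CPM in hypoxia, from 169, 178 and 158 counts. All hypoxia libraries were several times above control (log2 fold change 2.41 ± 0.185, adjusted p = 9.79e-11, edgeR). An antisense gene on the opposite strand, Gm16175, shares 161 of its 2475 exon bases.

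Nfkbia encodes IκBα, the classical inhibitor that NF-κB itself induces, and it carries the consensus match printed above. It lies on chromosome 12 (55489410 to 55492647, minus strand) and was at 19.9, 19.9 and 24.7 CPM in control and 26.2, 19.0 and 30.1 CPM in hypoxia. The groups overlapped, with hypoxia replicate 2 below all control libraries (log2 fold change 0.23 ± 0.135, 95% interval -0.06 to 0.51, adjusted p = 0.141, edgeR). Without that library the difference was 0.39 with an adjusted p of 0.00498 (edgeR), still below the fold limit, and without hypoxia replicate 3 it was 0.07 with 0.649.

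Tnfaip3 encodes an enzyme that trims and adds ubiquitin chains on signalling proteins upstream of the IκB kinases and so limits the pathway. It lies on chromosome 10 (19000910 to 19015657, minus strand) and was at 9.62, 10.1 and 11.2 CPM in control and 35.7, 31.4 and 33.7 CPM in hypoxia. The groups were far apart and each was tight (log2 fold change 1.70 ± 0.107, adjusted p = 3.24e-12, edgeR).

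The target genes Icam1 and Ier3 did not pass the test. Icam1, an adhesion molecule for leukocytes on chromosome 9 (21015985 to 21028817, plus strand), was at 4.90, 5.51 and 7.59 CPM in control and 6.23, 8.55 and 7.18 CPM in hypoxia. These libraries overlapped (log2 fold change 0.29 ± 0.180, 95% interval -0.09 to 0.66, adjusted p = 0.157, edgeR), and with 1 library left out the difference was between 0.14 without control replicate 1 (adjusted p = 0.531, edgeR) and 0.48 without control replicate 3 (adjusted p = 0.0317). The antisense gene Gm47079 shares 511 of its 4360 exon bases. Ier3, an early response gene that affects cell survival, on chromosome 17 (35821684 to 35822923, plus strand), was at 51.5, 53.6 and 57.1 CPM in control and 41.5, 53.7 and 47.7 CPM in hypoxia. Replicate 2 of hypoxia lay within the control range (log2 fold change -0.18 ± 0.0947, 95% interval -0.38 to 0.01, adjusted p = 0.0878, edgeR). Without that library the difference was -0.28 with an adjusted p of 0.0101 (edgeR), and without hypoxia replicate 1 it was -0.09 with 0.403. With no filter on low counts it was -0.24 with 0.0279, and none of these reached the fold limit.

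**Figure D4:**
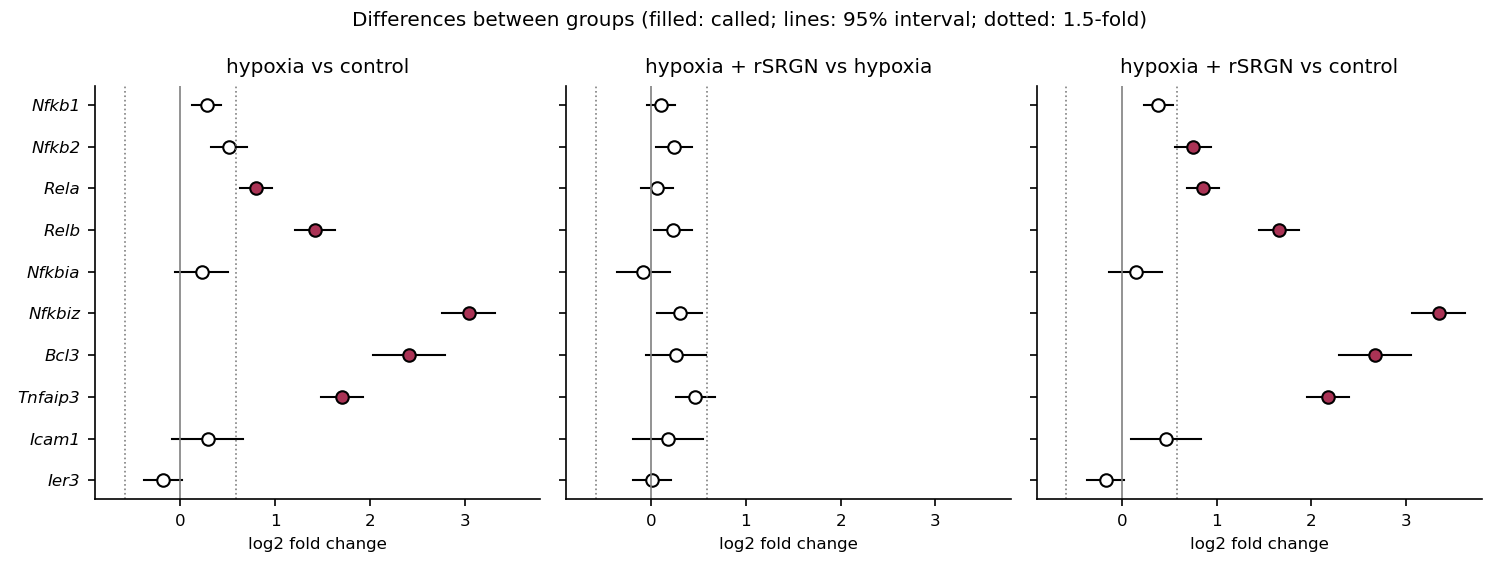
Log2 fold change of the 10 genes in the 3 comparisons, with lines for the 95% interval, filled points for called genes and dotted lines at a fold change of 1.5. In hypoxia against control 5 points are filled, in hypoxia + rSRGN against hypoxia none is, and in hypoxia + rSRGN against control 6 are.

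The second comparison, hypoxia + rSRGN against hypoxia, asks what the added protein changed under the same medium and oxygen. Tnfaip3 was the one gene of the 10 that passed the adjusted p, at 1.38-fold higher with rSRGN, which is below the fold limit. The other 9 genes did not pass, with fold changes between 0.946 for Nfkbia and 1.23 for Nfkbiz. By the call rule (edgeR) 0 of the 10 were called higher, where 2.27% of all genes were, and 0 lower, where 0.859% were. In the edgeR fit 4 of the 10 had an unadjusted p below 0.05 (Nfkb2, Relb, Nfkbiz and Tnfaip3, all higher). DESeq2 also called 0. The 1 of 10 past the adjusted p alone is close to the 10.5% of all genes that were higher by that rule. That count depended on the processing: it was 3 of 10 (Nfkb2, Nfkbiz and Tnfaip3) with DESeq2, beside 13.7% of all genes, and with no filter on low counts, beside 5.73%. In 5 of the 10 the rSRGN libraries lay wholly above the hypoxia libraries (Nfkb1, Nfkb2, Relb, Bcl3 and Tnfaip3), against 16.5% of all genes. The log2 fold change was above 0 in 9 of the 10, with a median of 0.20, and the median over all genes was -0.03.

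Tnfaip3 was at 50.3, 47.4 and 41.9 CPM with rSRGN against 35.7, 31.4 and 33.7 CPM without. The lowest rSRGN library was above the highest hypoxia library (log2 fold change 0.47 ± 0.0980, 95% interval 0.26 to 0.67, adjusted p = 0.00241, edgeR). Over all alternatives in the processing the difference was 0.41 to 0.55 and the adjusted p 7.37e-05 to 0.0216. The summed cardiomyocyte markers also differed between these groups (10601 to 11283 against 5168 to 8097 CPM). Of the 20 markers 16 (80%) were called higher, beside 2.27% of all genes. Of the 12 fibroblast markers 0 were called higher, beside 2.27% of all genes, and 1 (8.33%) lower, beside 0.859%. The part of the cardiomyocyte marker shift in the Tnfaip3 difference was not tested.

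Nfkbiz was at 133, 135 and 134 CPM with rSRGN, a coefficient of variation of 0.588%, against 97.2, 142 and 86.4 CPM in hypoxia. The rSRGN libraries lay inside the hypoxia range because hypoxia replicate 2 was highest of all (log2 fold change 0.30 ± 0.116, adjusted p = 0.0798, edgeR). The size of the difference depended on single hypoxia libraries: it was 0.54 without replicate 2 (adjusted p = 1.8e-05, edgeR), 0.16 without replicate 3 (adjusted p = 0.378) and 0.23 without replicate 1 (adjusted p = 0.236), in each case under the fold limit. With all 9 libraries its adjusted p was 0.0445 with DESeq2, 0.0033 with no filter on low counts and 0.0448 with a replicate block, and 0.103 with only the groups compared. Bcl3, at 12.6, 10.5 and 11.1 CPM with rSRGN, lay just above the hypoxia libraries (log2 fold change 0.26 ± 0.154, adjusted p = 0.268, edgeR). Nfkbia, at 24.8, 21.5 and 25.0 CPM, fell inside the hypoxia range of 19.0 to 30.1 CPM (log2 fold change -0.08 ± 0.135, 95% interval -0.36 to 0.20, adjusted p = 0.748, edgeR).

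The 4 subunit genes of the list showed small differences with rSRGN. Nfkb2 was at 92.3, 89.1 and 91.6 CPM, above the highest hypoxia library (log2 fold change 0.24 ± 0.0907, adjusted p = 0.078, edgeR). With DESeq2, RLE scaling, no filter on low counts or without control replicate 1, its adjusted p was between 0.0407 and 0.0481, and over all alternatives it was 0.0407 to 0.207. Relb was at 56.7, 51.6 and 48.8 CPM (log2 fold change 0.23 ± 0.0960, adjusted p = 0.101, edgeR). Nfkb1, at 96.1, 97.4 and 95.6 CPM, differed by 0.11 ± 0.0721 (adjusted p = 0.345, edgeR). Rela, at 86.4, 79.8 and 97.2 CPM, spread around the hypoxia libraries (0.06 ± 0.0811, adjusted p = 0.662, edgeR). The intervals of Nfkb1 (-0.04 to 0.26) and Rela (-0.11 to 0.23) leave out a change of 1.5-fold, and do not show that the groups were equal.

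Icam1 was at 9.18, 7.71 and 7.92 CPM with rSRGN, overlapping with hypoxia (log2 fold change 0.17 ± 0.178, 95% interval -0.20 to 0.54, adjusted p = 0.562, edgeR). Ier3 was at 43.3, 50.2 and 50.5 CPM and also overlapped (0.01 ± 0.0956, 95% interval -0.19 to 0.21, adjusted p = 0.954, edgeR). For both target genes the difference was smaller than the spread between the hypoxia libraries.

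The third comparison, hypoxia + rSRGN against control, shares libraries with both of the others and is therefore given beside them. Here 6 of the 10 genes were called higher (edgeR), where 24.1% of all genes were, and 0 lower, where 24.7% were. In this edgeR fit none was lower at an unadjusted p below 0.05. With DESeq2 the counts were also 6 and 0. The 6 were Nfkbiz (10.2-fold), Bcl3 (6.39-fold), Tnfaip3 (4.51-fold), Relb (3.16-fold), Rela (1.81-fold) and Nfkb2 (1.68-fold). Past the adjusted p alone, 8 of the 10 were higher against 34.4% of all genes, the additional ones being Nfkb1 (log2 fold change 0.39 ± 0.0722, adjusted p = 6.54e-05) and Icam1 (0.46 ± 0.178, adjusted p = 0.0256). The Icam1 difference reached the fold limit, at 0.66, without control replicate 3. Without control replicate 1, control replicate 2 or hypoxia + rSRGN replicate 1 it was 0.33, 0.40 or 0.38 and did not pass, with an adjusted p of 0.141, 0.097 or 0.0996 (edgeR). Nfkbia (0.15 ± 0.135, adjusted p = 0.348) and Ier3 (-0.17 ± 0.0944, adjusted p = 0.112) did not pass the test, although every Ier3 library with rSRGN was below every control library. With only the groups compared in the fit, the adjusted p of Ier3 was 0.0498 (edgeR) at a difference of -0.17.

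The rest of the pathway was described from a list of 65 other components, of which 59 were tested. In hypoxia against control 19 of them were called higher and 8 lower (edgeR), with a median log2 fold change of 0.31. That is 32.2% higher and 13.6% lower, beside 26.4% and 25.1% of all genes. The remaining subunit gene, Rel, was lower, at 16.04 ± 2.61 CPM in hypoxia against 27.1 ± 1.22 CPM in control (log2 fold change -0.75 ± 0.115, adjusted p = 4.94e-06), unlike Rela and Relb. Of the 4 other IκB family genes 3 were called higher and 0 lower. Of 11 kinase genes 3 were called higher and 4 lower, and the 27.3% higher is close to the 26.4% of all genes. The 36.4% lower stands beside 25.1% of all genes. Map3k8, a kinase bound to the Nfkb1 precursor, rose from 6.49 ± 0.559 to 33.3 ± 1.66 CPM (log2 fold change 2.36), and Map3k14, the inducing kinase of the non-canonical pathway, rose from 8.12 ± 0.863 to 25.6 ± 0.718 CPM (1.65). Tab1, an activator of the kinase TAK1's complex, fell from 48.5 ± 6.16 to 12.6 ± 0.946 CPM (-1.94).

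Of 12 receptor genes 7 (58.3%) were called higher and 1 (8.33%) lower, beside 26.4% and 25.1% of all genes. Cd40, a TNF receptor family member, rose from 8.20 ± 0.348 to 22.9 ± 3.59 CPM (log2 fold change 1.48, adjusted p = 9.79e-10), and Tlr3, a sensor of double-stranded RNA, fell from 7.24 ± 1.67 to 3.87 ± 0.435 CPM (-0.91, adjusted p = 0.000426). Of 20 adaptor or ubiquitin ligase genes 5 were higher and 0 lower, and the 25% higher is close to the 26.4% of all genes. Of 8 tested negative regulators 0 were higher and 1 lower, while Tnfaip3 itself was called higher. Of 8 ligand genes 3 had enough counts to be tested, and 1 was called higher and 1 lower. Tnfsf12, the ligand of the TWEAK receptor, rose from 4.53 ± 0.239 to 8.12 ± 1.54 CPM (log2 fold change 0.84, adjusted p = 0.000187). Il33, a cytokine of the interleukin-1 family, was at 3.85 ± 0.464 CPM in control and 1.73 ± 0.937 CPM in hypoxia (-1.14, adjusted p = 0.00282). The inducing cytokines Tnf, Il1a and Il1b had 25, 9 and 1 counts in all 3 control libraries together, 8, 0 and 0 in hypoxia and 4, 3 and 0 in hypoxia + rSRGN. These counts were below the filter, and no test was made of them.

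Among 43 other known target genes 37 were tested, and in hypoxia against control 32 were called higher and 2 lower, with a median log2 fold change of 1.21. That is 86.5% higher, beside 26.4% of all genes, and 5.41% lower, beside 25.1%. Ptgs2, the inducible cyclooxygenase, rose from 20.3 ± 4.22 to 169 ± 70.3 CPM (log2 fold change 3.05). The chemokine gene Ccl20 rose from 0.690 ± 0.186 to 4.11 ± 0.936 CPM (2.57), and the cytokine gene Il6 from 1.23 ± 0.384 to 7.02 ± 0.386 CPM (2.49). The survival targets that fell were Sod2, the mitochondrial superoxide dismutase, from 261 ± 7.41 to 71.4 ± 3.88 CPM (-1.87), and Xiap, a caspase inhibitor, from 101 ± 6.23 to 42.2 ± 6.66 CPM (-1.26). By role, 10 of 12 chemokine or cytokine genes, 5 of 5 transcription factors and 3 of 3 adhesion genes were called higher, the last beside an Icam1 that did not pass. Of the 12 fibroblast markers 8 were called higher in the same comparison, all 20 cardiomyocyte markers were called lower, and the part of that shift in these counts was not tested.

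With rSRGN against hypoxia, 16.6% of all genes passed the adjusted p alone. Of the 37 targets 13 did (35.1%), and of the 59 pathway genes 11 (18.6%). In 19 of the targets and 20 of the pathway genes the groups did not overlap, against 32% of all genes. Few of these genes also reached the fold limit. Of the 59 pathway genes 1 was called higher and 0 lower (edgeR), 1.69% beside 2.27% of all genes, and of the 37 targets 2 were called higher and 0 lower, 5.41% beside 2.27%. The pathway gene was Nfkbid, a further atypical IκB gene, at 1.99 ± 0.0270 CPM in hypoxia and 4.27 ± 0.706 CPM with rSRGN (log2 fold change 1.10 ± 0.268, adjusted p = 0.00734). The targets were Ccl20, at 5.10, 3.99 and 3.24 CPM in hypoxia and 10.6, 8.48 and 7.45 CPM with rSRGN (1.10 ± 0.214, adjusted p = 0.00144), and Ptgs2, at 131, 250 and 126 CPM in hypoxia and 349, 379 and 320 CPM with rSRGN (1.05 ± 0.172, adjusted p = 0.00036). Ptgs2 shared with Nfkbiz the high value in hypoxia replicate 2. The number of targets called was 8 without that library, and that of pathway genes 3, while the share of all genes called in either direction went from 3.13% to 4.0%. No pathway gene was called without hypoxia + rSRGN replicate 2. Rel, lower in hypoxia than in control, was at 22.7 ± 2.05 CPM with rSRGN and was not called against hypoxia or control. Its log2 fold change was 0.50 against hypoxia, without overlap between the groups, and -0.25 against control. In hypoxia + rSRGN against control, 20 pathway genes (33.9%) were called higher and 3 (5.08%) lower, and 29 targets (78.4%) were called higher and 2 (5.41%) lower, beside 24.1% and 24.7% of all genes.

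**Figure D5:**
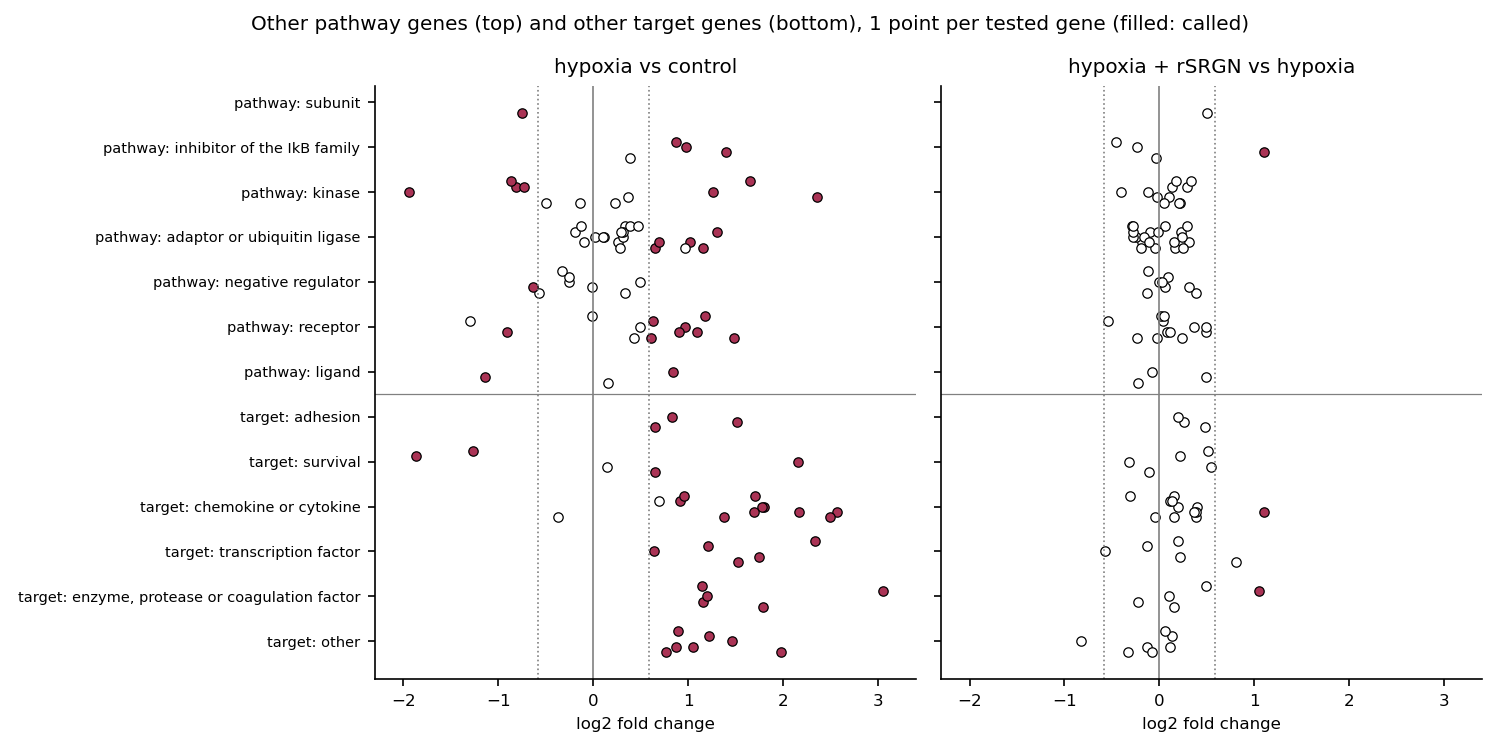
Log2 fold change of each tested gene of the pathway list (above the grey line) and the target list (below it), by role, for hypoxia against control (left) and for hypoxia with against without rSRGN (right), with filled points for called genes and dotted lines at a fold change of 1.5. In the left panel 32 of 37 targets are called higher, and in the right panel 3 genes are called, all higher.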

How the data were processed

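For each of the 9 libraries the authors deposited raw fragment counts by gene, as whole numbers and with no normalization. Per the file headers, paired-end fragments were counted on exons with featureCounts 2.0.1 and GENCODE release 25 (GRCm38), without strand. The submitters' processing notes name HISAT2 and mm10. Groups and replicate numbers came from the sample labels, and 0 columns of counts were left unused. Nothing in the labels says that replicates came from separate isolations, so p-values measure the spread between these cultures, which may be technical. No 2 libraries of a group agreed within sampling noise.

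The fit used edgeR 4.0.16 with limma 3.58.1 in R 4.3.3 (filterByExpr, TMM, a mean per group over all 9 libraries, quasi-likelihood test, Benjamini-Hochberg adjustment). SE is the log2 fold change divided by the square root of F, and intervals are 95%. CPM divides by the TMM-scaled total of the tested genes. Exon length came from the count table. Alternatives were DESeq2 1.42.0, RLE scaling, library size alone, other filters, no fold limit, only the groups compared, a replicate block and each library left out.

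The genes and lists were chosen with earlier results of these data known. All 10 genes are named. From the pathway and target lists, in the first 2 comparisons, the 3 largest rises and falls were named among called genes without overlap between groups and with a mean of at least 1 CPM. Rel, Tnfsf12, Cx3cr1, Tnf, Il1a and Il1b were named after their values were seen. Promoter windows came from RefSeq (GRCm38.p6). Figures were drawn with matplotlib 3.10.9.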

Additional observations from a re-analysis of the deposited data

How the results depend on the processing

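Of 153 recomputed counts of called genes 143 stayed within 1.5 times the value reported, and of 480 recomputed log2 fold changes of the 10 genes 472 kept their direction and their call (adjusted p and fold limit together). By the adjusted p alone 16 of the 480 crossed 0.05, for 7 differences of Nfkb2, Nfkbia, Nfkbiz, Icam1 and Ier3 between groups. With no fold limit the pathway genes called were 47 in hypoxia against control (34 higher, 13 lower), which is 79.7% beside 70.9% of all genes, and 41 in hypoxia + rSRGN against control (30 and 11), 69.5% beside 68.6%. In hypoxia + rSRGN against hypoxia they were 11 (9 and 2), 18.6% beside 16.6% of all genes, with 1 of the 10 genes and 13 targets (10 and 3, 35.1%). Leaving out 1 library each, the pathway count in hypoxia + rSRGN against hypoxia was 0 to 3 and the target count 2 to 8 (2 pathway genes without hypoxia replicate 1, 4 targets without hypoxia + rSRGN replicate 3). In that comparison the direction turned for Ier3 with library size alone (-0.0083), and leaving out 1 library gave -0.077 to 0.11 for Ier3, -0.24 to 0.072 for Nfkbia and -0.0076 to 0.13 for Rela. None of these was called, and the cause was not tested. With 1 library left out, Nfkb2 in hypoxia against control ranged from 0.39 to 0.59 and Icam1 in hypoxia + rSRGN against control from 0.33 to 0.66. Library size alone moved the median of all genes in hypoxia against control from 0.05 to 0.12.

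No pairing by replicate number was seen over all genes: deviations from the group means correlated at -0.037 to 0.021 between libraries of the same number. These correlations cannot show whether such libraries shared an isolation. With a replicate block the genes called were 5, 0 and 6 of the 10, Tnfaip3 differed by 0.47 with rSRGN (adjusted p = 0.00405, edgeR), and Nfkbiz by 0.32 (adjusted p = 0.0448). In hypoxia against control the block gave 28 pathway genes (19 higher, 9 lower) and 32 targets (30 and 2), in place of 27 and 34, and the other counts were as reported.

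Among the 10 genes Bcl3 and Icam1 had the fewest counts, at 33 to 218 and 109 to 160 per library. Expression was measured at 1 time, as RNA, and says nothing of NF-κB activity or of protein.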

Other observations

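For each of the 10 genes, the 3 genes with the nearest pattern over the 9 libraries were sought among 14247 others, by the root mean square difference in centred log2 CPM, and they are named for 4 of the 10 by rule. All libraries share their groups, so this describes likeness only. Nearest to Nfkbiz were Gem (0.163), Lor (0.218) and Fosl1 (0.220), the first a small GTPase gene and the last an AP-1 subunit gene. For Tnfaip3 they were Aqp5 (0.126), Ccl7 (0.127) and Chka (0.128), and Ccl7 is also a gene of the target list. For Nfkbia they were Kif18a (0.0885), Fancc (0.0993) and Zfp276 (0.105), and for Icam1 Zfp382 (0.112), Nectin3 (0.131) and Dedd (0.136). Over all 10 searches the genes of the pathway or target lists that were found were Ccl7, near Tnfaip3, and Map3k8, which was nearest to Bcl3 (0.135) and is named here after its value was seen. The 10 genes themselves were not candidates.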
